A study of Mus musculus with 112 samples.

Results

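Gm43513, 4930461G14Rik, Gm16008, Gm44033 and Gm37893 are 5 long noncoding RNAs (lncRNAs) that were picked, in mouse embryonic stem cells, as the largest falls on chromatin after loss of SNRNP70, out of 1624 lncRNAs held in any of 4 deposited tables. All 5 are in the 2 tables of total RNA (1279 lncRNAs each), 4 are in the table of polyadenylated (polyA) RNA (1246 lncRNAs, without Gm44033) and 2, Gm43513 and 4930461G14Rik, are in the table of newly made RNA (492 lncRNAs). Because they were chosen by their fall on chromatin, their chromatin values after SNRNP70 loss are given as a description with no test, in every assay. Tests are given for the other fractions and for antisense block of U1 or U2, which come from other libraries. In each assay the other fractions share replicate numbers with the chromatin libraries. They may come from the same cells, and so may not be independent of that choice.

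U1 small nuclear ribonucleoprotein (U1 snRNP) is the particle that pairs with 5′ splice sites at the start of splicing, and SNRNP70 is one of its proteins. U1 snRNP also keeps RNA polymerase II transcripts from being cut and polyadenylated too early, and it binds many nuclear noncoding RNAs. U2 snRNP recognises the branch point near the 3′ end of introns. Many lncRNAs stay at chromatin near the genes that make them, where they differ from most messenger RNAs.

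The cells were 46C mouse embryonic stem cells of strain 129/Ola, cultured with serum and leukemia inhibitory factor. In a derived line SNRNP70 carried an auxin-inducible degron (AID), and cells were collected at 0 h or after 4 h of 500 µM indole-3-acetic acid (IAA), the auxin that triggers degradation, so that the tag was present in both groups. For SLAM-seq, which reads RNA made during labelling with 4-thiouridine through T-to-C changes, the same line was labelled for 3 h, either without IAA or with 500 µM IAA after 2 h of IAA alone. Without the degron, cells received antisense morpholino oligonucleotides (AMOs) for 2 h: 75 µM of a scrambled control, of U1 AMO or of U2 AMO, or 50 µM of U1 and U2 AMO together. No group had IAA without the degron, so effects of IAA itself and of SNRNP70 loss cannot be told apart. Groups were whole cells, chromatin, cytoplasm or nucleoplasm, with 3 libraries each except whole-cell control AMO with 2. The labels name no separate cultures for the libraries and no number of clones for the degron line. The p-values therefore measure only the spread between these libraries, which may be technical.

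All 10 embryonic stem cell lncRNAs on the marker list were read in both total RNA tables, with summed levels of 215 to 252 FPKM in whole cells of the degron line and 123 to 182 in whole cells given AMOs. Of 8 lncRNAs of differentiated cells, 6 were read, at summed levels of 33.9 to 44.9 and 14.5 to 28.2 FPKM. On chromatin the summed stem cell lncRNAs ranged from 78.6 to 237 FPKM in the degron line, and all 10 were lower after 4 h of IAA, as were 3 of 6 lncRNAs of differentiated cells (median log2 changes -1.56 and -1.03) and 588 of all 1260 lncRNAs tested. Read depth is not known for the FPKM tables, and 24927 to 227237 whole reads per library were recovered from the SLAM-seq signal. In these bulk samples, fewer cells with a transcript and less of it per cell cannot be told apart.

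Of the 5 lncRNAs, 2 had a position and a promoter in the RefSeq tables of build GRCm38.p6. 4930461G14Rik (ENSMUSG00000097651.1) lies on the plus strand at chr9:58455173-58469623, with 1 RefSeq transcript. Gm16008 (ENSMUSG00000087381.8) lies on the minus strand at chr4:156020428-156031662, with 2 RefSeq transcripts. Gm37893 is ENSMUSG00000103928.1, Gm43513 is ENSMUSG00000105607.1 and Gm44033 is ENSMUSG00000108154.1. Promoters are shown for the placed pair because the other lncRNAs of the set had none there. Each is 300 bases, from 250 before to 50 after the annotated start, written 5′ to 3′ on the gene's own strand, with every CCAAT on that strand, or ATTGG for CCAAT on the other strand, in capitals.
4930461G14Rik, chr9:58454923-58455222, plus strand: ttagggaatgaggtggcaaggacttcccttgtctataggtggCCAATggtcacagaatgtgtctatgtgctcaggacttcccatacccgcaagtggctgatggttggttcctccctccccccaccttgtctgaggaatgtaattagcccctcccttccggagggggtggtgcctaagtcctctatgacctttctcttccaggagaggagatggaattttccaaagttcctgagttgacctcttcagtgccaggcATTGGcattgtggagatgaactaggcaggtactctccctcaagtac
Gm16008, chr4:156031613-156031912, minus strand: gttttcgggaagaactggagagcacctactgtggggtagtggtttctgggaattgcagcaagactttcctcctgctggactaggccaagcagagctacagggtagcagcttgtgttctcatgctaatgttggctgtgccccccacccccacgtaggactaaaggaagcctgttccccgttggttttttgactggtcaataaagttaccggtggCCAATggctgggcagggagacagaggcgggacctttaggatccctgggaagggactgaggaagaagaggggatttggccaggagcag
CCAAT, the core letters bound by the factor NF-Y, stood once in the upstream Gm16008 promoter, 37 bases before the start. In 4930461G14Rik it stood 208 bases before the start, and once more on the opposite strand just after the start. Of all 32851 RefSeq mouse promoters of that length, 37.4% held CCAAT on either strand, so a match is common. The second Gm16008 promoter, at chr4:156023775-156024074, held none. TATAAA, present in 13.6% of promoters, and GGTAAG, a strong form of the 5′ splice site that U1 pairs with and present in 9.7%, were found in none of the 3 windows on either strand. AATAAA, the letters of the polyadenylation signal, present in 19.6%, stood once in the upstream Gm16008 window, before the start. As 250 of the 300 bases lie before the annotated start, these windows cannot tell whether the transcripts hold such sites.

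The Gm16008 span holds Tnfrsf18, a protein-coding gene of the tumour necrosis factor receptor family, on the other strand, and the snRNA gene Gm25982. The 4930461G14Rik span overlaps the lncRNA genes Gm32820 and Gm32768 on the other strand. A directional kit is named in the labels, but whether the values count 1 strand is not given in the sources used here, so signal from these pairs may be shared. The nearest other lncRNA of the tables, within 100 kb of either gene, was Gm13648, 21053 bases from Gm16008. It is held in the polyA and SLAM-seq tables. After SNRNP70 loss Gm13648 fell in SLAM-seq nucleoplasm, from a scaled signal of 34.5 ± 10 to 8.58 ± 9.7 (SD, n = 3; log2 change -1.51, limma adjusted p = 0.0347). Of all lncRNAs tested there 9.59% fell. Gm13648 was then near the minimum of 8 used for testing, with an SD above its mean. It did not pass in the other 4 comparisons that hold it, which were polyA RNA on chromatin (0.363 ± 0.14 to 0.233 ± 0.045 FPKM, limma adjusted p = 0.266) and in whole cells (limma adjusted p = 0.871) and SLAM-seq on chromatin (limma adjusted p = 0.122) and in cytoplasm (limma adjusted p = 0.726).

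On chromatin in total RNA every 4 h library of each of the 5 lncRNAs lay below every 0 h library. The same held for 660 of all 1260 lncRNAs tested (52.4%). Values are FPKM (fragments scaled to transcript length and to library size), scaled by the authors to spike-in RNA in the separated fractions. Gm43513 was at 5.29, 4.33 and 4.19 FPKM at 0 h and at 0.69, 0.29 and 0.22 at 4 h, an 11.5-fold fall of the mean. 4930461G14Rik was at 7.89, 4.39 and 4.88 FPKM at 0 h and at 0.6, 0.52 and 0.55 at 4 h, a 10.3-fold fall. Gm16008 was at 4.55, 3.86 and 3.3 FPKM at 0 h and at 0.32, 0.58 and 0.28 at 4 h, a 9.92-fold fall. Gm44033 was at 5.02, 3.3 and 3.09 FPKM at 0 h and at 0.79, 0.47 and 0.13 at 4 h, an 8.21-fold fall. Gm37893 was at 5.57, 5.2 and 4.97 FPKM at 0 h and at 1.39, 0.9 and 0.85 at 4 h, a 5.01-fold fall. The first 0 h library was the highest for all 5. The 5 began within a narrow range, 3.80 to 5.72 FPKM on average, and Gm37893 kept the highest level after loss, 1.05 ± 0.298 FPKM (SD, n = 3).

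In order of the fitted fall they were 3rd (Gm43513), 4th (4930461G14Rik), 6th (Gm16008), 8th (Gm44033) and 61st (Gm37893) of 1260 lncRNAs tested there. The set was chosen by falls on chromatin, in an assay that is not given and may be this one, so nothing is read from the fact that all passed. Of all lncRNAs tested 46.7% fell on chromatin at a limma adjusted p under 0.05 (588 lower and 40 higher, or 210 and 265 with libraries centred on their medians). Among the 294 lncRNAs that passed, did not overlap and had a mean at or above the median, 4930461G14Rik had the largest fall and Gm37893 the 16th. Gm43513, Gm16008 and Gm44033 were not among the 294, as their means lay under that median. The largest falls of the 294 outside the set were Platr4, a stem cell lncRNA, from 35.3 ± 7.9 to 5.02 ± 1.5 FPKM, 2400006E01Rik, from 13.7 ± 2.1 to 1.97 ± 0.43, and Gm44983, from 7.57 ± 1.9 to 1.28 ± 0.44 (SD, n = 3). Some lncRNAs outside both the set and the 294 had larger fitted falls than these.

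**Figure D1:**
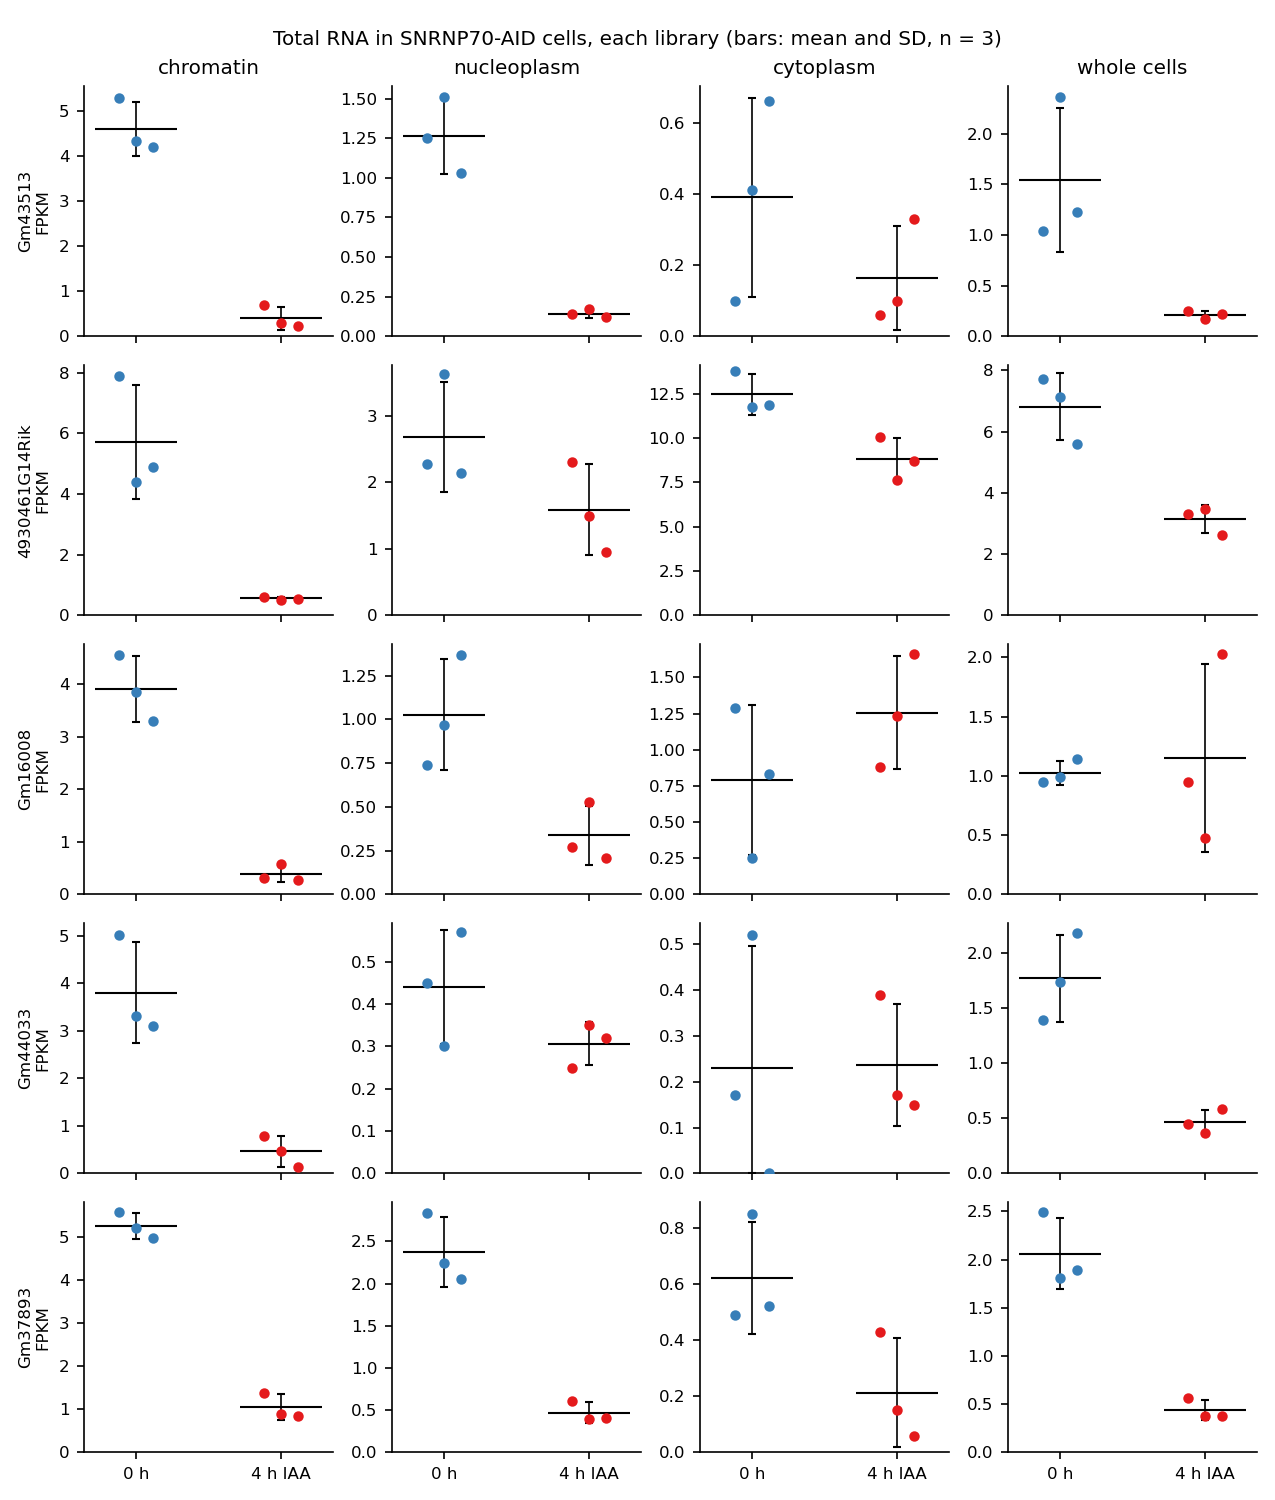
Level in FPKM of each lncRNA (rows) in each fraction (columns) of SNRNP70-AID cells at 0 h and after 4 h of IAA; points are libraries, bars the mean and SD of 3. The groups do not overlap on chromatin for any of the 5, where 52.4% of all lncRNAs tested fell without overlap. In cytoplasm the groups overlap for Gm43513, Gm16008 and Gm44033.

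PolyA RNA on chromatin split the 4 lncRNAs that its table holds. Gm37893 went from 6.09, 6.38 and 5.99 FPKM at 0 h to 0.96, 0.61 and 0.53 at 4 h, an 8.79-fold fall of the mean. Gm43513 went from 1.94, 2.93 and 1.71 to 0.16, 0.27 and 0.14, an 11.5-fold fall. For both the groups were apart, as they were for 43.9% of all lncRNAs in that direction. By the fitted log2 change Gm37893 and Gm43513 ranked 4th and 5th of 1217 lncRNAs. Gm16008, at 0.32, 1.13 and 1.64 FPKM before and 0.34, 0.27 and 0.41 after, overlapped, because its first 0 h library was as low as the 4 h ones. 4930461G14Rik overlapped too, at 0.95, 1.85 and 0.86 FPKM before and 0.33, 0.64 and 0.86 after. In that comparison 36.8% of all lncRNAs tested fell (448 lower and 109 higher, or 201 and 232 with libraries centred). Gm37893 was the only one of the 4 whose polyA level on chromatin at 0 h, 6.15 ± 0.203 FPKM, was as high as its total RNA level, 5.25 ± 0.303 (SD, n = 3); the tables were normalised separately, so the levels are set side by side without a test.

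Newly made RNA on chromatin showed both lncRNAs of the SLAM-seq table close to the floor after loss. Gm43513 went from a scaled signal of 157.49, 118.47 and 155.65 without IAA to 6.91, 1.26 and 8.59 with it, a 25.8-fold fall of the mean. By the fitted log2 change, which adds a constant to each value, it ranked 1st of 423 lncRNAs. Those values rest on 103, 170 and 106 reads without IAA and 8, 1 and 11 with it. 4930461G14Rik went from 24.46, 27.18 and 32.31, which are 16, 39 and 22 reads, to 0, 0 and 1.56, which are 0, 0 and 2 reads. All its values with IAA lay under the minimum of 8, so only its libraries without IAA brought it among those tested. No fold and no rank are given for it. On chromatin 33.6% of lncRNAs tested in the SLAM-seq table fell (142 lower and 24 higher, or 65 and 96 with libraries centred on their medians, and 94 lower without replicate 2 of the cells without IAA).

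In the nucleoplasm, which holds RNA released from chromatin inside the nucleus, 3 of the 5 lncRNAs fell in total RNA after SNRNP70 loss, against 10.8% of all lncRNAs tested (130 lower and 63 higher, or 90 and 148 with libraries centred). That background count of 130 was 82 and 79 without 4 h replicate 2 and 3, and 45 and 28 without 0 h replicate 1 and 2. These libraries were not used to choose the set. They share replicate numbers with the chromatin libraries and may come from the same cells, so the share of the set may not be independent of that choice. Here and below, changes are log2 differences with limma standard errors, on log2 of the value plus a small constant, which understates the change of low transcripts. Gm43513 was at 1.25, 1.51 and 1.03 FPKM at 0 h and 0.14, 0.17 and 0.12 at 4 h, a log2 change of -2.48 ± 0.27 (SE; limma adjusted p = 0.00212). Gm37893 was at 2.84, 2.24 and 2.05 FPKM at 0 h and 0.61, 0.39 and 0.41 at 4 h, a change of -2.13 ± 0.25 (limma adjusted p = 0.00212). For both the lowest 0 h library was several times the highest 4 h library.

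Gm16008 was at 0.74, 0.97 and 1.37 FPKM in the 0 h nucleoplasm and 0.27, 0.53 and 0.21 at 4 h, a change of -1.40 ± 0.36 (limma adjusted p = 0.0339). Its call was lost when libraries were centred on their medians (adjusted p = 0.0699) and in 5 of the 6 fits that left out 1 library, all but the one without 4 h replicate 2 (-1.70 to -1.18 over the 6). 4930461G14Rik, from 2.68 ± 0.825 to 1.59 ± 0.684 FPKM (SD, n = 3), did not pass (limma adjusted p = 0.162), and its groups overlapped. Gm44033, from 0.44 ± 0.135 to 0.307 ± 0.0513 FPKM, did not pass either (limma adjusted p = 0.422).

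Whole cells gave 4 of 5 lower in total RNA, against 6.5% of all lncRNAs tested (82, or 29 to 60 without 1 library). Whole cells include the chromatin RNA by whose fall the set was chosen, so this share is not independent of that choice. Gm43513 was at 1.04, 2.36 and 1.23 FPKM at 0 h and 0.25, 0.17 and 0.22 at 4 h (log2 change -2.32 ± 0.36, limma adjusted p = 0.0089). Gm37893 was at 2.49, 1.81 and 1.89 FPKM at 0 h and 0.56, 0.38 and 0.38 at 4 h (-2.01 ± 0.26, limma adjusted p = 0.00455). Gm44033 was at 1.39, 1.74 and 2.18 FPKM at 0 h and 0.45, 0.37 and 0.58 at 4 h (-1.72 ± 0.27, limma adjusted p = 0.00908). In each of these the groups were clearly apart, and 19.4% of all lncRNAs tested were lower without overlap. 4930461G14Rik, the most abundant of the 5 in whole cells, was at 7.72, 7.13 and 5.59 FPKM at 0 h and 3.3, 3.49 and 2.63 at 4 h, a 2.17-fold fall (-1.09 ± 0.18, limma adjusted p = 0.0108). Gm16008 was the exception, at 0.95, 0.99 and 1.14 FPKM before and 0.95, 0.48 and 2.03 after (limma adjusted p = 0.959), with a 95% interval of the log2 change from -1.09 to 1.01.

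In cytoplasm none of the 5 passed in limma, 2 had an unadjusted p under 0.05, and 1.01% of all lncRNAs fell. 4930461G14Rik held its highest level of any fraction there, 13.8, 11.72 and 11.87 FPKM at 0 h and 10.08, 7.65 and 8.68 at 4 h, and although the groups did not overlap the difference did not pass (-0.50 ± 0.17, limma adjusted p = 0.165). Gm37893, from 0.62 ± 0.2 to 0.213 ± 0.193 FPKM (SD, n = 3), did not pass (limma adjusted p = 0.228). Gm16008 was at 1.29, 0.25 and 0.83 FPKM before and 0.88, 1.23 and 1.66 after, and Gm43513 and Gm44033 reached at most 0.66 and 0.52 FPKM in any cytoplasmic library. For these 3 the groups overlapped, and 12.8% of all lncRNAs tested in cytoplasm were lower without overlap.

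PolyA RNA of whole cells, which also include the chromatin RNA, repeated part of the whole-cell pattern, with 2 of 4 lower against 7.05% of all lncRNAs tested. Gm37893 was at 1.72, 1.88 and 1.49 FPKM at 0 h and 0.22, 0.32 and 0.29 at 4 h (log2 change -2.26 ± 0.25, limma adjusted p = 0.000445). Gm43513 was at 0.81, 0.96 and 1.19 FPKM at 0 h and 0.12, 0.07 and 0.27 at 4 h (-2.16 ± 0.35, limma adjusted p = 0.00317). By the fitted change they ranked 2nd and 3rd of 1135 lncRNAs tested. 4930461G14Rik stood at 2.62, 3.36 and 2.07 FPKM before and 2.92, 2.9 and 4.37 after (0.33 ± 0.23, limma adjusted p = 0.363), in contrast to its total RNA in whole cells, though that difference between assays was not tested. Gm16008, from 1.38 ± 0.583 to 0.833 ± 0.464 FPKM (SD, n = 3), did not pass (limma adjusted p = 0.296).

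In the nucleoplasm of the SLAM-seq set, Gm43513 went from 86.39, 46.28 and 99.37 to 9.58, 1.64 and 10.17, on 33, 23 and 47 reads against 3, 1 and 3. It fell by 2.49 on the log2 scale (SE 0.53, limma adjusted p = 4.48e-05), and edgeR's quasi-likelihood test on the reads also called it lower (adjusted p = 5.55e-05). 4930461G14Rik, from 57.0 ± 28.6 to 27.0 ± 12 (SD, n = 3), did not pass (limma adjusted p = 0.196). That made 1 of 2 lower, against 9.59% of all lncRNAs. In labelled RNA of the cytoplasm, where 4.02% fell, 4930461G14Rik was at 149.7, 242.94 and 117.02 without IAA and 143.94, 96.49 and 89.17 with it (limma adjusted p = 0.643; 0 of 1 tested at an unadjusted p under 0.05, and none by edgeR). Gm43513 had 8 reads in 1 cytoplasmic library without IAA and 0 in the other 5, so it was not tested.

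**Figure D2:**
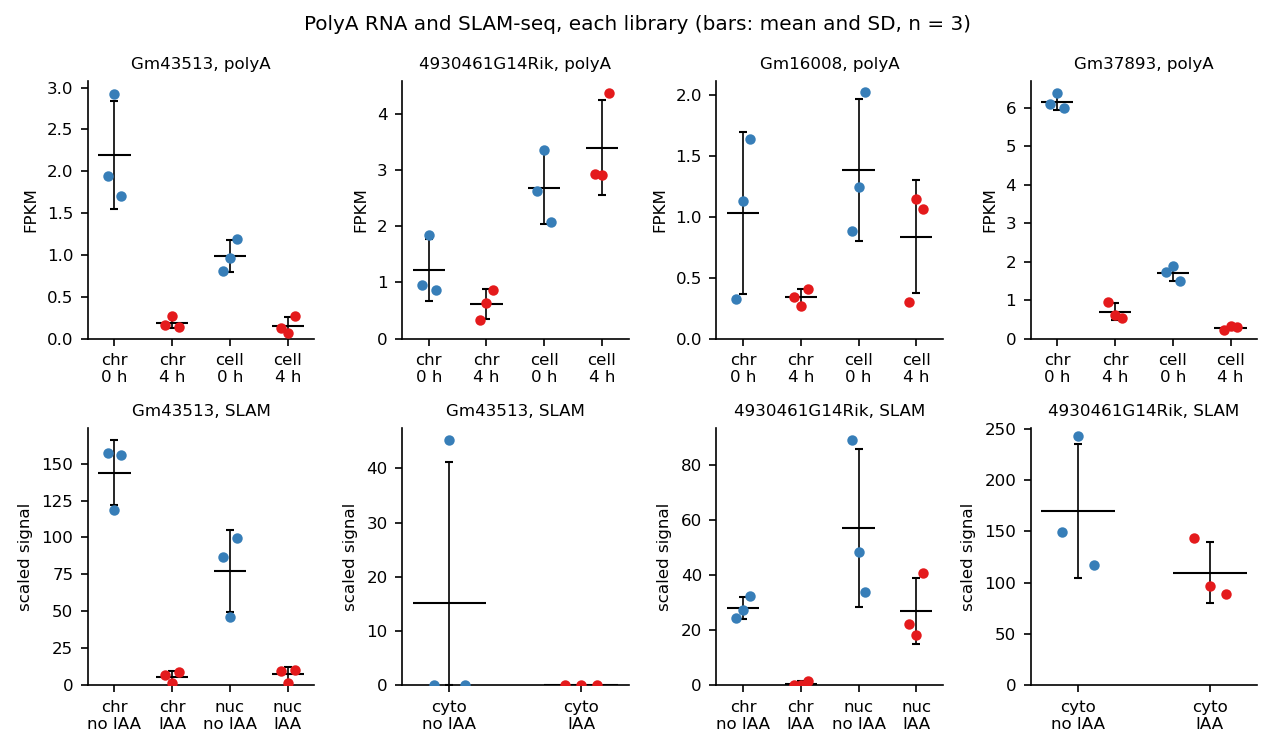
PolyA RNA in FPKM on chromatin (chr) and in whole cells (cell), upper row, and the SLAM-seq scaled signal on chromatin, in nucleoplasm (nuc) and in cytoplasm (cyto), lower row; points are libraries, bars the mean and SD of 3. Gm43513 and Gm37893 drop in polyA whole cells, where 4930461G14Rik goes from 2.68 to 3.40 FPKM on average.

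**Figure D3:**
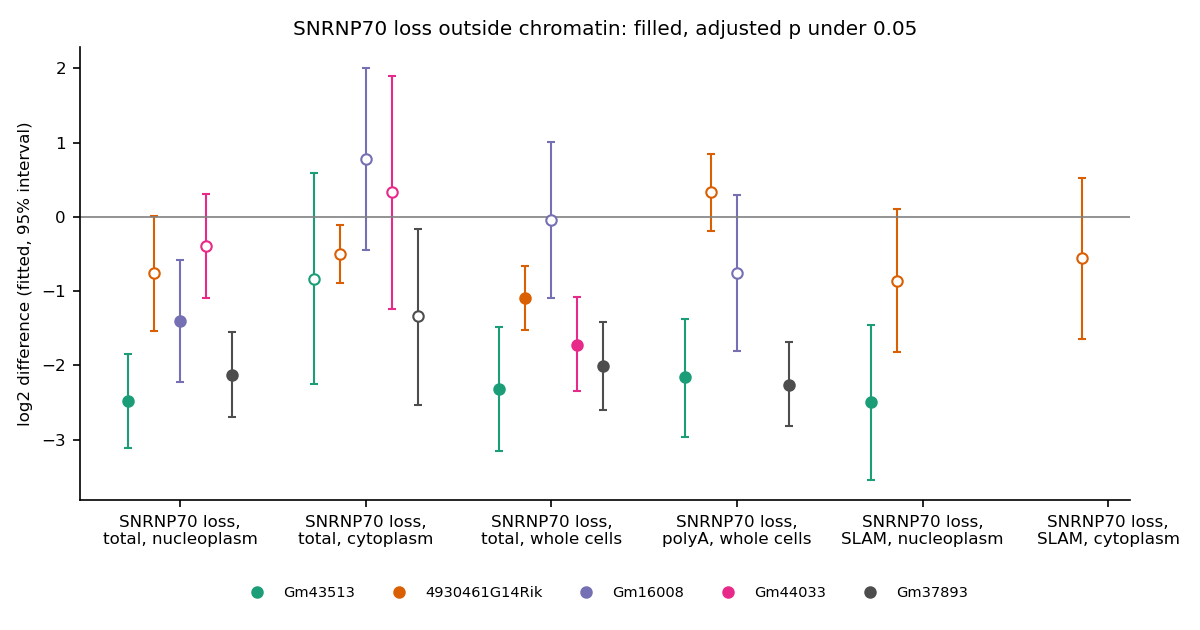
Fitted log2 difference after SNRNP70 loss in the comparisons that did not choose the set, with 95% intervals; filled points have a limma adjusted p under 0.05. Gm43513 and Gm37893 are lower in nucleoplasm and whole cells, and no point in either cytoplasm column is filled.

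Before any block, in control AMO cells, the lncRNAs differed in where they lay. Gm44033 was at 3.03, 5.01 and 4.59 FPKM on chromatin against 0.72, 1.63 and 0 in cytoplasm and 0.8, 0.36 and 0.42 in nucleoplasm, a log2 excess on chromatin over the mean of both of 2.63 ± 0.55 (SE; limma adjusted p = 0.00128). Gm43513 (1.56 ± 0.29, limma adjusted p = 0.00049) and Gm37893 (1.33 ± 0.31, limma adjusted p = 0.00257) were also higher on chromatin. That was 3 of 5, against 60.3% of all lncRNAs, so the share is that of the table as a whole. 4930461G14Rik, at 4.48, 3.83 and 4.34 FPKM on chromatin, reached 13.1, 14.29 and 21.81 in cytoplasm (-0.37 ± 0.20, limma adjusted p = 0.13). Gm16008 was near the detection minimum, at 0.54 ± 0.05 FPKM on chromatin against 3.90 ± 0.626 in the degron line at 0 h (SD, n = 3). Fractions were scaled separately: centred on library medians, Gm44033 alone stayed higher on chromatin, while Gm16008 (-0.98, limma adjusted p = 0.00885) and 4930461G14Rik (-1.47, limma adjusted p = 0.000152) were lower there.

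U1 AMO lowered 3 of the 5 on chromatin, against 52.8% of all lncRNAs tested (651 lower and 65 higher, or 145 and 224 with libraries centred), so the count is close to that of lncRNAs in general. 4930461G14Rik went from 4.48, 3.83 and 4.34 FPKM in control AMO to 0.75, 0.83 and 0.76, a 5.41-fold fall (log2 change -2.17 ± 0.19, limma adjusted p = 1.77e-05) that ranked 13th of 1234 by the fitted change. Gm37893 went from 2.04, 1.32 and 2.16 FPKM to 0.34, 0.62 and 0.46 (-1.59 ± 0.27, limma adjusted p = 0.000496). Gm43513 went from 2.34, 1.86 and 2.64 FPKM to 1.13, 1.01 and 0.93 (-1.01 ± 0.23, limma adjusted p = 0.00242). In all 3 the groups did not overlap, and 59.2% of all lncRNAs tested were likewise lower without overlap. The median of all lncRNAs shifted by -0.81 in that comparison, and with each library centred on its median only 4930461G14Rik stayed lower. Gm37893 was then at -0.76 (limma adjusted p = 0.0799) and Gm43513 at -0.17 (limma adjusted p = 0.611).

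Gm44033 and Gm16008, whose falls after SNRNP70 loss were 8.21-fold and 9.92-fold, did not pass after U1 AMO. Gm44033 was at 3.03, 5.01 and 4.59 FPKM in control AMO and 3.95, 3.01 and 2.55 in U1 AMO (-0.38 ± 0.37, limma adjusted p = 0.394), with a 95% interval from -1.19 to 0.43. Gm16008 was at 0.54, 0.49 and 0.59 FPKM against 0.16, 0.49 and 0.23 (-0.64 ± 0.33, limma adjusted p = 0.113), and passed when the second U1 library was left out (-0.91, limma adjusted p = 0.0422). Both differences turned positive with libraries centred, to 0.46 and 0.20. The degron and AMO sets differ in line, treatment time and table, and no test was made between them.

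U2 AMO lowered 2 of the 5 on chromatin, where 5.34% of all lncRNAs fell (66 lower and 36 higher, 122 lower with the replicate number as a block, and 47 and 97 with libraries centred). Gm43513 was at 0.68, 0.77 and 1.24 FPKM (-1.20 ± 0.23, limma adjusted p = 0.00721), which is 2.54-fold under control AMO. 4930461G14Rik was at 2.41, 1.53 and 1.78 FPKM (-1.09 ± 0.19, limma adjusted p = 0.00497), a 2.21-fold fall. Neither overlapped the control libraries, where 18.9% of all lncRNAs were lower without overlap, and both stayed lower with libraries centred. Gm37893, at 1.56, 1.08 and 1.14 FPKM, did not pass (-0.47 ± 0.27, limma adjusted p = 0.355). Gm44033 ranged from 1.61 to 6.24 FPKM in U2 AMO and Gm16008 from 0.44 to 0.58, both across their control values (limma adjusted p = 0.602 and 0.899).

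The difference between U1 and U2 AMO was tested directly. On chromatin 4930461G14Rik was lower with U1 AMO than with U2 AMO, 0.78 ± 0.0436 against 1.91 ± 0.453 FPKM (log2 difference -1.08 ± 0.19, limma adjusted p = 0.00094). Gm37893 was also lower with U1 AMO, 0.473 ± 0.14 against 1.26 ± 0.262 FPKM (-1.12 ± 0.27, limma adjusted p = 0.00574). Gm43513, Gm16008 and Gm44033 did not pass, with 95% intervals from -0.30 to 0.68, -1.24 to 0.19 and -0.78 to 0.84. So 2 of 5 were lower with U1 AMO, against 41.8% of all lncRNAs (509 lower and 68 higher, or 150 and 201 with libraries centred), whose median differed by -0.60 between both AMOs. Centred on library medians neither call held (adjusted p = 0.167 for 4930461G14Rik and 0.252 for Gm37893), and Gm43513 was then higher with U1 AMO than with U2 AMO (0.81, limma adjusted p = 0.0209).

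U1 and U2 AMO together lowered 3 of the 5 on chromatin, against 50.1% of all lncRNAs (617 lower and 48 higher, or 103 and 187 with libraries centred). 4930461G14Rik was at 1.13, 1.09 and 1.13 FPKM (-1.74 ± 0.19, limma adjusted p = 5e-05), Gm37893 at 0.65, 0.35 and 0.62 (-1.46 ± 0.27, limma adjusted p = 0.00111) and Gm43513 at 1.29, 1.31 and 1.46 (-0.66 ± 0.23, limma adjusted p = 0.0248). None of these overlapped control AMO, nor did Gm44033, and 56.9% of all lncRNAs tested were lower without overlap. The median of all lncRNAs shifted by -0.75, and after centring 4930461G14Rik alone stayed lower, Gm37893 was at -0.66 (limma adjusted p = 0.141) and Gm43513 changed sign, to 0.13. The Gm43513 call was also lost in 4 of 6 fits without 1 library, those leaving out control replicate 1 or 3 or U1 and U2 AMO replicate 1 or 2 (-0.56 to -0.79 over all 6). The 3 AMO comparisons share their control libraries, so their values are given side by side only.

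**Figure D4:**
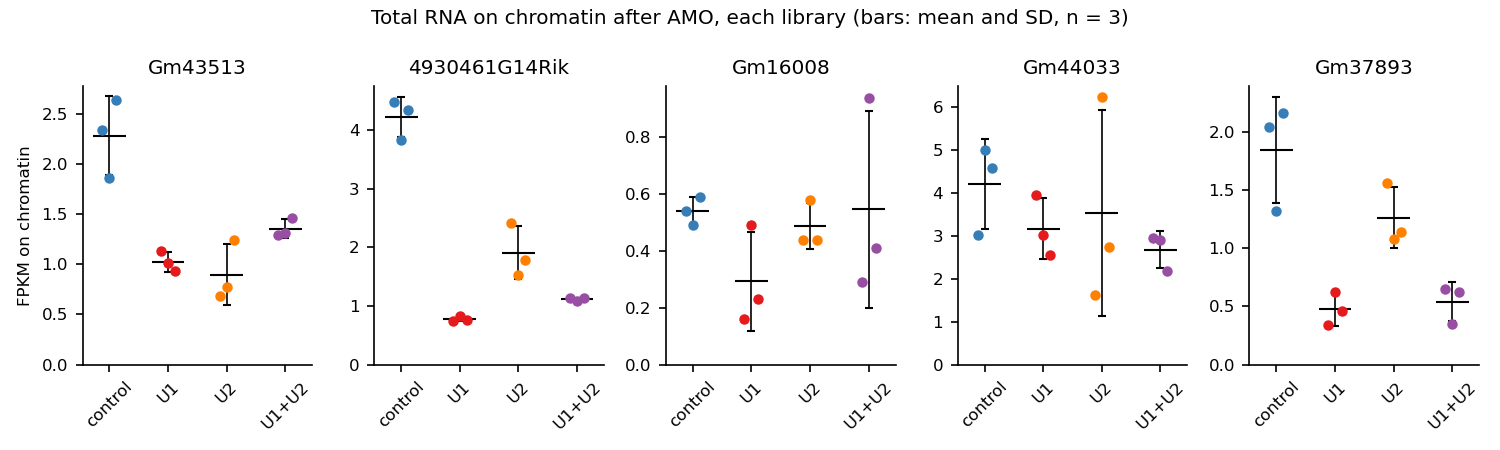
Level on chromatin in FPKM after control, U1, U2 or combined (U1+U2) AMO; points are libraries, bars the mean and SD of 3. 4930461G14Rik drops from 4.22 FPKM in control to 0.78 in U1 AMO and 1.91 in U2 AMO, and Gm44033 overlaps its control libraries under U1 and U2 AMO.

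Outside chromatin few of the 5 moved under AMOs. In nucleoplasm after U1 AMO, 4930461G14Rik fell from 1.6, 1.72 and 2.09 FPKM to 0.84, 0.58 and 0.67 (-1.16 ± 0.29, limma adjusted p = 0.0122), which was 1 of 4 tested against 4.73% of all lncRNAs (46 lower and 120 higher, 79 lower with the replicate block, and 138 and 123 with libraries centred); without control replicate 3 it missed the threshold (-1.06, limma adjusted p = 0.0519). Gm37893, from 0.55, 0.26 and 0.57 FPKM to 0.31, 0.13 and 0.15, did not pass (-0.72 ± 0.29, limma adjusted p = 0.105), but passed with the replicate number as a block (-0.72, limma adjusted p = 0.042), with libraries centred (-0.83, limma adjusted p = 0.0224) and without control replicate 2 (-0.97, limma adjusted p = 0.0425). Gm16008 was too low to test in nucleoplasm. After U1 and U2 AMO together Gm37893 was at 0.14, 0.08 and 0.13 FPKM in nucleoplasm, all under the minimum of 0.2. It was tested only because its 3 control libraries reached that minimum, so nothing is read from its call as lower (-1.03 ± 0.29, limma adjusted p = 0.0234, 1 of 4 against 9.4% of all lncRNAs). The call was lost without any 1 of the 6 libraries, either past the threshold (3 fits) or because too few libraries reached the minimum (3 fits).

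U1 AMO was below U2 AMO in nucleoplasm for 4930461G14Rik (-0.84 ± 0.29, limma adjusted p = 0.0467) and Gm37893 (-0.86 ± 0.28, limma adjusted p = 0.0363), 2 of 4 against 24% of all lncRNAs (253 lower and 40 higher, or 110 and 120 with libraries centred). Both calls were lost with libraries centred (adjusted p = 0.448 and 0.287), with only the 2 groups in the fit (adjusted p = 0.0851 and 0.0674), and in 4 of the 6 fits without 1 library for each (adjusted p up to 0.169 and 0.15). The U1 and U2 libraries of 4930461G14Rik overlapped there. After U2 AMO none of 4 passed as lower in nucleoplasm by limma, 0 at an unadjusted p under 0.05, where 0% of all lncRNAs fell (0 lower and 235 higher, or 44 and 88 with libraries centred, with a median log2 change of 0.46).

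In cytoplasm none of the 5 was lower by limma after U1 AMO (3.51% of all lncRNAs; 0 members at an unadjusted p under 0.05), U2 AMO (1.18%; 1 at an unadjusted p under 0.05) or both together (5.78%; 1 at an unadjusted p under 0.05), or with U1 against U2 AMO (0.424%; 0 at an unadjusted p under 0.05). In whole cells none was lower by limma after U1 AMO (7.62%; 2 at an unadjusted p under 0.05), U2 AMO (1.35%; 2), both (5.66%; 1) or with U1 against U2 AMO (9.27%). In the last of these Gm43513 and Gm16008 had an unadjusted p under 0.05 in the other direction, 0.78 and 1.13 higher with U1 AMO (2 of 5; limma adjusted p = 0.0646 and 0.0887). Gm43513 passed with libraries centred (0.88, limma adjusted p = 0.0482). Gm16008 passed without U2 AMO replicate 2 (1.52, limma adjusted p = 0.0369). Its U2 AMO libraries were at 0, 0.25 and 0 FPKM, so the libraries kept in that fit were at 0. It was tested there only because its U1 AMO libraries reached the minimum of 0.2, so nothing is read from that call. Only 2 control libraries were available for whole cells. 4930461G14Rik in whole cells was at 4.23 and 4.71 FPKM in control and 1.71, 3.6 and 2.93 in U1 AMO (limma adjusted p = 0.116). Leaving out the second of the 2 control libraries left 1 control. Against that library Gm37893 was at -1.34 with U1 AMO and Gm44033 at 1.72, given as values only.

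**Figure D5:**
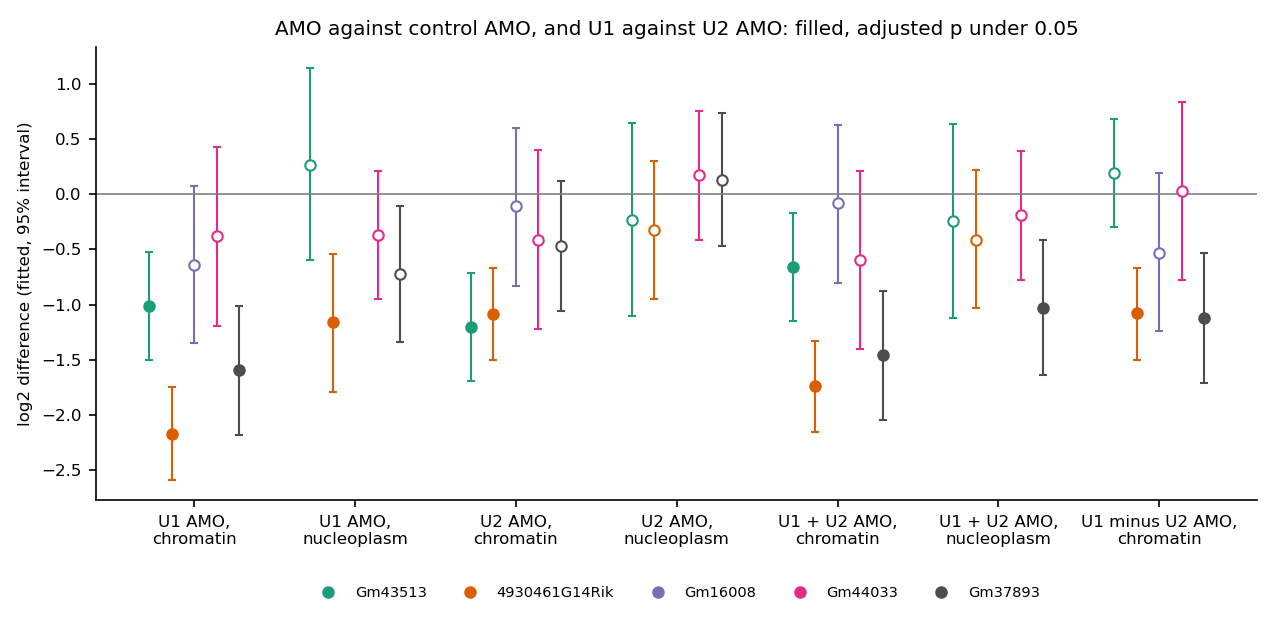
Fitted log2 difference from control AMO on chromatin and in nucleoplasm after U1, U2 or combined AMO, and the U1 minus U2 AMO difference on chromatin, with 95% intervals; filled points have a limma adjusted p under 0.05. The 4930461G14Rik point is filled in all 3 chromatin comparisons with control, the Gm16008 and Gm44033 points in none.

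Whether chromatin fell more than the soluble fractions was tested by subtracting the average change of cytoplasm and nucleoplasm from the chromatin change. After U1 AMO it was -1.45 ± 0.31 for 4930461G14Rik (limma adjusted p = 0.00372), and the other 4 did not pass, which is 1 of 5 against 19.7% of all lncRNAs. After U2 AMO none of the 5 passed by limma, with 4930461G14Rik at -0.97 ± 0.31 (limma adjusted p = 0.14; 1 of 5 at an unadjusted p under 0.05) and 0.548% of all lncRNAs past the threshold. With libraries centred the shift of 4930461G14Rik after U1 AMO was -0.61 and did not pass (limma adjusted p = 0.44).

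The 5 did not share 1 pattern over the 16 AMO groups (4 treatments in 4 fractions). Pearson correlations of group mean log2 levels between them, a description over groups that share libraries and depth, ran from -0.40 (4930461G14Rik with Gm44033) to 0.78 (4930461G14Rik with Gm16008). Among lncRNAs at or above the median level, those most like Gm43513 were Gm44366 (r = 0.92) and Mir17hg, the host of a microRNA cluster (0.91). Those most like 4930461G14Rik were Platr27 (0.98) and 1110002L01Rik (0.97), and most like Gm16008 were 9330020H09Rik (0.93) and Gm53 (0.92). Gm44033 was most like Gm44699 (0.95) and Kcnq1ot1, an imprinted nuclear lncRNA (0.94), and Gm37893 most like Gm38372 (0.97) and Gm43143 (0.96).

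Lists of lncRNAs of known location give the setting for these changes. On chromatin after SNRNP70 loss 12 of 15 nuclear-retained lncRNAs tested, a list that holds Malat1, Neat1, Kcnq1ot1 and Meg3, were lower and 0 higher, with a median log2 change of -0.95, against -0.65 for all lncRNAs. Of 12 snoRNA-host and cytoplasmic lncRNAs, among them Gas5, Snhg1, Snhg3 and Snhg5, 3 were lower and 3 higher (median 0.15). In whole cells 3 of 14 nuclear-retained lncRNAs were lower and 1 higher, and 8 of 12 snoRNA-host and cytoplasmic lncRNAs were higher, against 82 lower and 67 higher of all 1261. After U1 AMO on chromatin the lists gave 12 of 15 lower and 1 higher, and 3 of 12 lower and 1 higher, against 651 lower and 65 higher of all 1234.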

How the data were processed

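The members and lists were chosen with earlier results of these data known. RNA of mouse embryonic stem cells was measured in 101 libraries of 112 samples; 1 control AMO column, whose name gives no fraction, was not used, nor were TT-seq, ChIRP and peak data. The authors deposited FPKM values for total and polyA RNA, with spike-in scaling named for the 3 fractions and none for whole cells, per the file headers. The authors deposited the SLAM-seq signal as T-to-C read counts normalised to spike-ins, per the file headers. Spike-ins were lacZ and mCherry for total RNA and ERCC for polyA and SLAM-seq, per the labels. CASAVA, TopHat, Cufflinks and mm10 are named in the submitters' processing notes.

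Values were tested with limma 3.58.1 (R 4.3.3; moderated with a trend, Benjamini-Hochberg adjustment over all lncRNAs tested, threshold 0.05) on log2 of the value plus a pseudocount of 0.1 (total and polyA), 8 (SLAM-seq) or 0.2 (AMO). A lncRNA was tested where 3 libraries of the groups compared reached that value. AMO fits held all 4 groups of a fraction. In each of the 18 SLAM-seq libraries 100% of values lay within 0.1 read of a whole read, and edgeR 4.0.16 was run on those reads. On chromatin after SNRNP70 loss limma was fitted over all lncRNAs for the background counts, lists and ranks, but no p is given for a member in any of the 3 assays, since the assay that chose the members is not given; the plan had member tests for polyA and SLAM-seq there. The named lncRNAs are the members, the 3 largest falls on chromatin outside them among lncRNAs that passed, did not overlap and had a mean at or above the median, the 2 most alike for each, and neighbours within 100 kb. The models were tested on simulated data.

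The libraries' replicate numbers were checked for pairing by the correlation of same-numbered deviations from group means. Every correlation was over 0.1 for AMO against control on chromatin (lowest 0.34 for U1, 0.35 for U2, 0.28 for both) and in nucleoplasm (0.2, 0.22 and 0.15), and for U1 against U2 AMO on chromatin, in cytoplasm and in nucleoplasm (0.39, 0.2 and 0.22), so the block is given there where it changes a call. Alternatives were pseudocounts, no filter, median centring, no trend, the replicate block, 2-group fits, edgeR and leaving out each library.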

Additional observations from a re-analysis of the deposited data

Results flagged for a closer look

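The change of 4930461G14Rik on chromatin after U1 AMO was below the mean of its changes in cytoplasm and nucleoplasm by the test of the difference itself. In that test 19.7% of all lncRNAs were lower. Its change was -0.28 in cytoplasm and -1.16 in nucleoplasm, and chromatin was not tested against either alone. The difference from their mean was -1.45 on the log2 scale (SE 0.31, limma adjusted p = 0.00372), with chromatin going from 4.22 ± 0.342 to 0.78 ± 0.0436 FPKM (SD, n = 3). With libraries centred on their medians it was -0.61 and did not pass (limma adjusted p = 0.44).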

How the results depend on the processing

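Fractions were scaled separately and the depth of the FPKM libraries is not known, so values near the minimum carry an error that could not be computed. Across settings the cause of each change was not tested. With libraries centred on their medians the number of members past the threshold became 0 for U1 against U2 AMO on chromatin and in nucleoplasm and for the shift after U1 AMO, 1 for U1 AMO, for both AMOs on chromatin and for the control AMO baseline, and 2 for U1 AMO in nucleoplasm. U1 against U2 AMO in nucleoplasm gave 1 without the filter or with a pseudocount of 1, and 0 with only its 2 groups. The shift after U1 AMO gave 2 with a pseudocount of 1. Centring turned the sign of Gm44033 and Gm37893 in nucleoplasm after U2 AMO (-0.37 and -0.41), Gm16008 in the control baseline (-0.98), in whole cells without SNRNP70 (0.01), on chromatin after U1 (0.20), U2 (0.12) and both AMOs (0.72), in U1 against U2 on chromatin (0.09) and in the U1 shift (0.32), Gm43513 in the U1 and U2 shifts (0.06 and 0.12) and after both AMOs on chromatin (0.13), Gm37893 in the U1 and U2 shifts (0.10 and 0.22), and Gm44033 on chromatin after U1 (0.46) and both AMOs (0.20) and in the U1 and U2 shifts (0.50 and 0.19). A pseudocount divided by 5 turned Gm43513 in the U2 shift (0.10), and one of 1 turned Gm44033 in U1 against U2 on chromatin (-0.00) and Gm16008 in the U2 shift (-0.04), the baseline (-0.06) and whole cells without SNRNP70 (0.02).

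With the replicate number as a block, U1 AMO gave 1 member lower in whole cells (4930461G14Rik, -0.77, limma adjusted p = 0.042) and 2 in nucleoplasm, and both AMOs gave 1 in cytoplasm (Gm37893, -1.63, limma adjusted p = 0.0487). The block changed all lncRNAs lower without SNRNP70 from 82 to 40 in whole cells and from 11 to 6 in cytoplasm, and for U1 against U2 AMO in cytoplasm from 5 to 21.

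Without 1 library, members lower ranged from 0 to 2 in nucleoplasm for U1 AMO and for U1 against U2 AMO. Leaving out 1 library gave 0 to 1 for both AMOs in cytoplasm and 0 each time for both AMOs in nucleoplasm. It turned the sign, with these ranges, of Gm16008 in whole cells without SNRNP70 (-0.53 to 0.41), after both AMOs on chromatin (-0.43 to 0.17) and in cytoplasm (-0.50 to 0.02), after U2 in cytoplasm (-0.56 to 0.44), in U1 against U2 in cytoplasm (-0.82 to 0.18) and in the U2 shift (-0.12 to 0.38). For Gm44033 they were cytoplasm without SNRNP70 (-0.35 to 0.97), U1 cytoplasm (-0.61 to 0.99), U2 chromatin (-0.90 to 0.01), cytoplasm (-1.45 to 0.15) and whole cells (-0.14 to 1.58), both AMOs in nucleoplasm (-0.42 to 0.06) and whole cells (-0.35 to 1.37), U1 against U2 on chromatin (-0.39 to 0.52) and in whole cells (-0.13 to 0.32), and the U1 and U2 shifts (-0.69 to 0.11 and -0.71 to 0.23). For Gm37893 they were U2 nucleoplasm (-0.11 to 0.36) and whole cells (-0.83 to 0.16) and U1 against U2 in cytoplasm (-0.74 to 0.16), for Gm43513 U1 nucleoplasm (-0.01 to 0.54) and whole cells (-0.11 to 0.18) and U2 nucleoplasm (-0.62 to 0.15), and for 4930461G14Rik U2 cytoplasm (-0.10 to 0.31).

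The count of all lncRNAs lower also moved by over 1.5 times in these cases. Centring took it from 88 to 55 after U1 AMO in whole cells, 14 to 7 after U2 AMO in cytoplasm, 69 to 44 after both in cytoplasm, 17 to 27 in SLAM-seq cytoplasm and 5 to 12 for U1 against U2 AMO in cytoplasm, beside the changes given in the report. Without the trend it went from 11 to 0 in cytoplasm without SNRNP70, 17 to 1 in SLAM-seq cytoplasm, 47 to 28 in SLAM-seq nucleoplasm and 14 to 1 after U2 AMO in cytoplasm. With only the 2 groups it went, in cytoplasm, from 42 to 22 (U1), 14 to 0 (U2) and 5 to 0 (U1 against U2), and in whole cells from 88 to 39 (U1), 16 to 1 (U2) and 66 to 30 (both). Without the filter it went from 17 to 3 in SLAM-seq cytoplasm and 0 to 1 after U2 AMO in nucleoplasm. A pseudocount divided by 5 gave 11 in SLAM-seq cytoplasm and 2 for U1 against U2 AMO in cytoplasm, one of 1 gave 106 on chromatin and 2 in nucleoplasm after U2 AMO, and the block gave 1 in nucleoplasm after U2 AMO. Without 1 library the ranges were, without SNRNP70, 0 to 7 in cytoplasm, 49 to 73 in polyA whole cells, and 9 to 20 and 24 to 45 in SLAM-seq cytoplasm and nucleoplasm. After U1 AMO they were 13 to 34 in cytoplasm, 20 to 60 in nucleoplasm and 21 to 78 in whole cells, and after U2 AMO 24 to 74 on chromatin, 0 to 14 in cytoplasm, 0 to 2 in nucleoplasm and 1 to 16 in whole cells. After both they were 17 to 58 in cytoplasm, 28 to 82 in nucleoplasm and 15 to 48 in whole cells, and for U1 against U2 AMO 0 to 3, 106 to 251 and 59 to 93. With libraries centred the lower and higher calls became 91 and 107 (from 80 and 147) in polyA whole cells, 67 and 76 (from 47 and 87) in SLAM-seq nucleoplasm, 55 and 100 (from 88 and 79) after U1 AMO in whole cells, 7 and 7 (from 14 and 8) after U2 AMO in cytoplasm, 44 and 58 (from 69 and 34) after both in cytoplasm, 46 and 85 (from 66 and 79) after both in whole cells, and 12 and 33 (from 5 and 37) and 78 and 117 (from 110 and 94) for U1 against U2 AMO in cytoplasm and whole cells.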
